A study of Mus musculus with 60 samples.

Results

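Expression was examined for 8 genes that encode enzymes of the kynurenine pathway and of NAD metabolism, namely Kynu, Aadat, Acmsd, Nadsyn1, Nmnat1, Nadk, Nadk2 and Nnmt. They were chosen by name and matched by gene symbol to 8 of the 55335 Ensembl genes in the count tables, and all 8 were among the 15546 genes retained for testing, each reaching at least 1 CPM (the reads of a gene scaled to the total of its library) in a sample or more. RNA from the kidneys of 60 male mice had been sequenced, with 5 mice of each of 2 genotypes at ZT0, ZT4, ZT8, ZT12, ZT16 and ZT20 (zeitgeber time, in hours, where ZT0 is the time at which lights come on). The control mice were Bmal1 lox/lox and kept an intact Bmal1 (Arntl), a core activator of the circadian clock. The cKOt mice were Bmal1 lox/lox/Pax8-rtTA/LC1 Cre, in which a doxycycline-dependent activator under the Pax8 promoter switches on Cre recombinase along the renal tubule. Both genotypes were on a C57BL/6J background and were littermates, both drank doxycycline (2 mg/ml, with 20 mg/ml sucrose) for 2 weeks from the age of 8 weeks, and the kidneys were taken about a month later. The labels give the tissue as renal tubule, whereas the study's methods describe pieces of whole kidney, in which cells without Cre activity keep Bmal1.

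Tryptophan is broken down through kynurenine, and the branches of this route end in kynurenic acid, in full oxidation of the carbon skeleton, or in quinolinic acid, from which cells can build NAD anew. NAD is also made from nicotinic acid and, through nicotinamide mononucleotide, from nicotinamide. The proximal tubule is among the few sites in the body that carry most of the enzymes of the route from tryptophan. In that route, kynureninase (Kynu) cleaves kynurenine and 3-hydroxykynurenine, Aadat (kynurenine aminotransferase II, also called aminoadipate aminotransferase) forms kynurenic acid, and Acmsd diverts the semialdehyde intermediate away from quinolinic acid. Nmnat1 is the nuclear adenylyltransferase that joins the mononucleotide to ATP, Nadsyn1 amidates nicotinic acid adenine dinucleotide to NAD, Nadk (cytosolic) and Nadk2 (mitochondrial) phosphorylate NAD to NADP, and Nnmt methylates nicotinamide so that it leaves the cycle.

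Promoter sequence was available from RefSeq (GRCm38.p6) for 5 of the 8 genes, Acmsd, Aadat, Nadsyn1, Nadk and Nmnat1, as 7 windows that run from 250 bases before to 50 bases after a transcription start. Both strands were searched for the E-box CACGTG (the element that BMAL1 binds together with CLOCK), its variant CACGTT, the D-box TTATGNAA and the nuclear receptor half-site AGGTCA, none of which overlapped another in these windows. A match was found in 2 of the 7 windows. The stretch around the match of Nadk is given here in lower case with the match in capitals, because Nadk had the smallest p of the 8 genes in the comparison of genotypes.
Nadk, chr4:155563763-155563792, plus strand: cgccgctctcccCACGTGccctgcagcgca
The capitals mark an E-box whose first base lies 40 bases before the transcription start of the second of the 2 Nadk windows. In the GENCODE annotation this place is inside the gene, in an untranslated region of transcript Nadk-203. An E-box was present in 7.15% and the half-site in 16.3% of the 32851 windows of this length, and CACGTT and TTATGNAA in 4.68% and 3.38%. These matches are letters in a window and were not tied to binding.

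Libraries held 17791420 to 20906706 counts on genes (median 18545208.5). Counts over the whole of Arntl do not isolate the floxed exon and so do not check the deletion itself. Over the day Arntl swung between 2.73 ± 0.825 CPM (SD, n = 5) at ZT8 and 48.4 ± 10.2 CPM at ZT0 in control mice and stayed between group means of 17.4 and 24.4 CPM in cKOt mice. Over all times the means were 22.2 ± 20.4 CPM in the control and 20.7 ± 2.95 CPM in the cKOt group (SD, n = 30), whereas the log2 differences at the single time points averaged 0.71 ± 0.09 (SE) with cKOt higher. Of the 15 core clock genes, 13 had a genotype difference that varied with time of day, beside 3.08% of all retained genes. Markers of all nephron segments were present, with a summed level of the 10 proximal tubule markers between 13346 and 19322 CPM in single mice. Those of the adrenal cortex were low. Cyp11b2 was at 0 in all 60 libraries, Cyp11b1 in 59, Cyp11a1 in 42 and Hsd3b1 in 28. Star was above 0 in every library, with 0.637 to 2.54 CPM. Replicates are separate mice, and no pairing of samples by replicate number was seen. The 6 library batches of 9 to 12 samples held both genotypes.

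Per kilobase of exon, Aadat was the most abundant of the 8 mRNAs, with 209 ± 32.3 RPKM (CPM divided by the exonic length in kilobases) in control mice and 277 ± 35.8 RPKM in cKOt mice (SD, n = 30 each), above 99.3% of all retained genes. Nadk, at 63.4 ± 4.67 RPKM in control mice, and Acmsd, at 54.1 ± 17.9 RPKM, came next, and their ranges over single mice overlapped. Nadk2 (25.2 ± 2.33 RPKM), Nadsyn1 (9.81 ± 1.23 RPKM) and Nmnat1 (6.26 ± 0.422 RPKM) followed without overlap between them in control mice, although the ranges of Acmsd and Nadk2 met. Kynu (0.798 ± 0.278 RPKM) and Nnmt (0.405 ± 0.192 RPKM) were lowest and overlapped each other in range. In cKOt mice Acmsd had a higher median level than Nadk, 56.6 against 53.4 RPKM, again with overlapping ranges, and the ranges of Nadsyn1 and Nmnat1 overlapped too. Kynu was counted with 36 to 279 reads and Nnmt with 0 to 29 reads per library. Counting limits the precision of Nnmt, while Kynu varied widely between mice of a group (2.76 to 7.43 CPM in control mice at ZT0). No exon of the 8 genes is shared with another gene on the same strand, whereas Acmsd and Nmnat1 overlap 2900009J06Rik and Tmem274 on the opposite strand, and whether reads were counted by strand is not given in the sources used here.

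**Figure D1:**
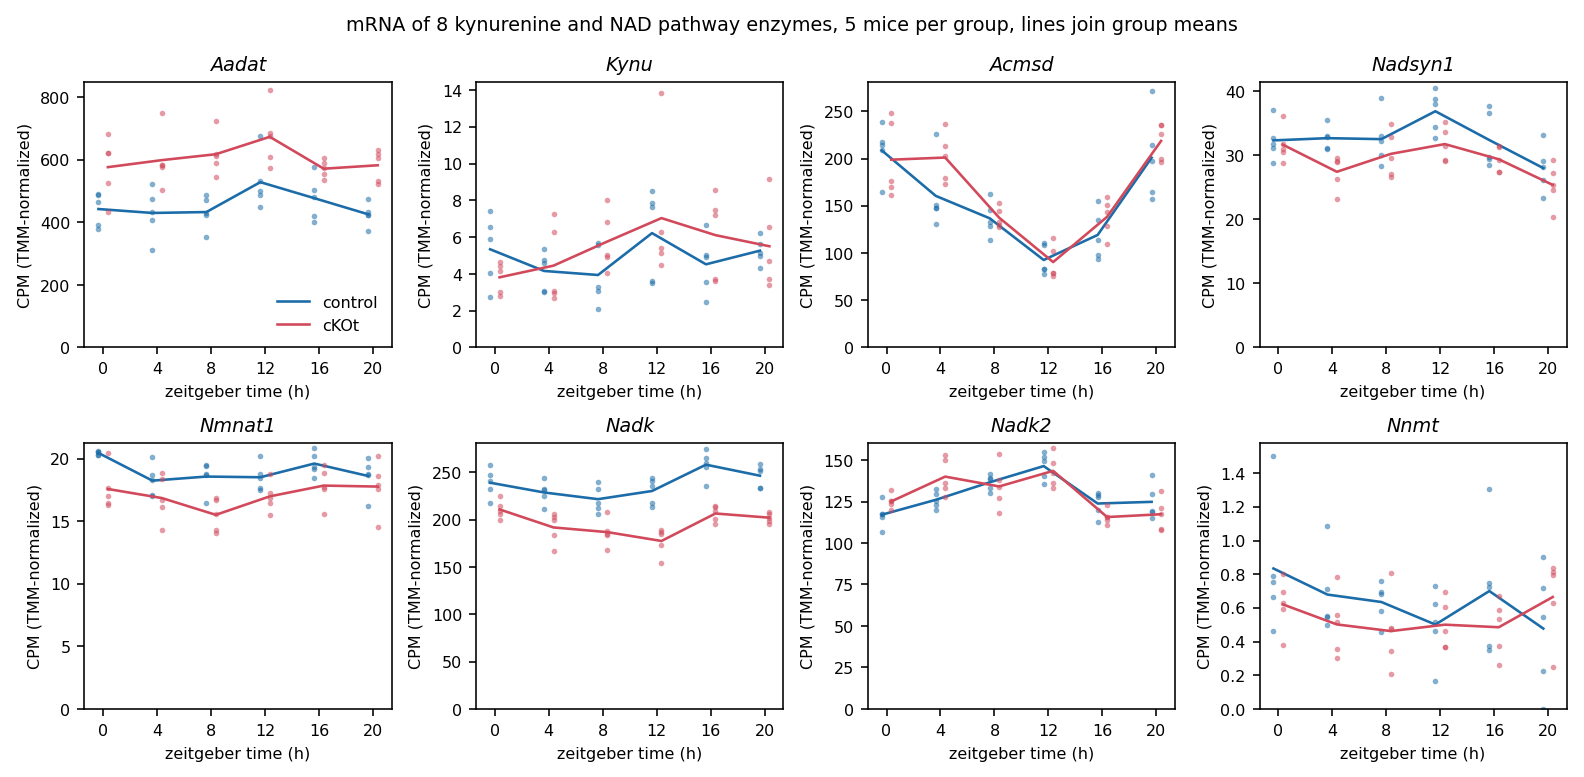
TMM-normalized CPM (y axis, from 0) of each of the 8 genes against zeitgeber time in hours (x axis), with a point for each mouse, 5 per group, and lines joining group means (blue, control and red, cKOt). Aadat lies higher and Nadk lower in cKOt mice at every time point, and the Acmsd curves of both genotypes fall together to a low at ZT12.

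The first comparison asked which of these genes differed between genotypes when averaged over the day. Aadat was higher in cKOt mice and Nadk, Nmnat1 and Nadsyn1 were lower, whereas Acmsd, Kynu, Nadk2 and Nnmt did not pass the threshold (adjusted p below 0.05, quasi-likelihood F test of edgeR, adjusted over all retained genes). Thus 4 of 8 genes were called, 1 higher and 3 lower, beside 50% of all retained genes (26.8% higher and 23.2% lower). These 4 of 8 are the same share as over all genes. The median log2 difference of the 8 genes was -0.07, beside 0.01 over all retained genes. In tissue RNA of this kind, fewer cells of a type and less RNA per cell cannot be told apart.

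**Figure D2:**
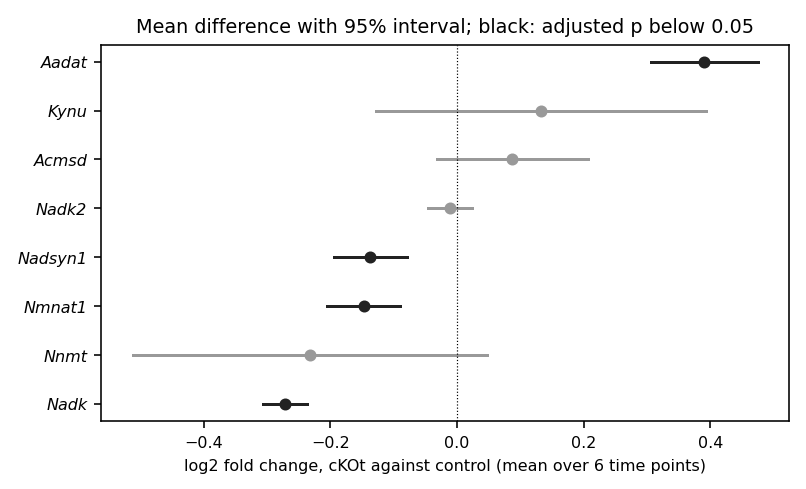
Log2 fold change of cKOt against control mice averaged over the 6 time points (x axis) for the 8 genes (y axis), with points for the estimate and bars for the 95% interval (30 mice per genotype). Black marks an adjusted p below 0.05, and the intervals of Aadat, Nadsyn1, Nmnat1 and Nadk lie clear of 0.

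Aadat (ENSMUSG00000057228, chromosome 8, 60505932 to 60545677, plus strand, GRCm38), which forms kynurenic acid from kynurenine, averaged 456 ± 70.3 CPM in the control and 603 ± 78.0 CPM in the cKOt group (SD, n = 30 each). At ZT0 the 5 mice of each group had, in ascending order, 379, 393, 465, 487 and 489 CPM in the control and 432, 525, 620.0, 621 and 683 CPM in the cKOt group. At ZT4 there were 310.3, 408, 432, 476 and 524 CPM in the control and 504, 575, 582, 582 and 751 CPM in the cKOt group. The ranges of the genotypes overlapped at both of these times. The largest difference was seen at ZT8, with 354, 424, 430.0, 469.8 and 486 CPM in the control and 544, 588, 612, 619 and 725 CPM in the cKOt group. At ZT12 the values were 447, 488, 500.3, 531 and 675 CPM in the control and 572, 609, 676, 686 and 823 CPM in the cKOt group. At ZT8 all 5 cKOt mice were above all 5 control mice, and at ZT12, when the means of both genotypes were highest, 1 control mouse lay among the cKOt mice. At ZT16 the values were 402, 419, 482, 505 and 578 CPM in the control and 535, 554, 575, 589 and 604 CPM in the cKOt group. At ZT20 they were 371, 423, 424, 435 and 475 CPM in the control and 524, 533, 607, 617 and 631 CPM in the cKOt group. The ranges overlapped at ZT16 and were separate at ZT20.

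The mean difference of Aadat was 0.39 ± 0.04 (log2 fold change of cKOt against control, SE), or 1.31-fold, with an adjusted p of 1.76e-11 in edgeR. The difference passed the threshold at each of the 6 time points, from 0.29 ± 0.10 at ZT16 (adjusted p = 0.0364, edgeR) to 0.55 ± 0.10 at ZT8 (adjusted p = 4.29e-05, edgeR). Of all retained genes, 1.92% were called higher at all 6 time points, and 6.63%, 6.2%, 10.6%, 10.3%, 10% and 5.98% were called higher at ZT0, ZT4, ZT8, ZT12, ZT16 and ZT20. Groups without overlap and with cKOt above were found for 5.02% of genes at ZT8 and 3.03% at ZT20. There was no evidence that the difference changed over the day (interaction, adjusted p = 0.808, edgeR). The calls at ZT16, ZT4, ZT12, ZT0 and ZT20 were lost under 6, 3, 2, 1 and 1 of 14 alternatives. At ZT16 these included leaving out the cKOt mouse that the study's sample table marks for removal (replicate 4, adjusted p = 0.0709, edgeR). The highest adjusted p values (edgeR) were 0.229 at ZT16 without replicate 3, 0.139 at ZT4 without replicate 5, and 0.183 at ZT12, 0.105 at ZT0 and 0.0587 at ZT20 without replicate 1. Leaving out replicate 1 of each group lost the calls at ZT0, ZT4, ZT12, ZT16 and ZT20 together. The call at ZT8 alone held under all 14 alternatives. Within library batches the difference was above 0 in 6 of 6 batches, from 0.04 in batch 6 (6 control and 3 cKOt mice) to 0.61 in batch 1.

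Nadk (ENSMUSG00000029063, chromosome 4, 155562378 to 155591001, plus strand), the cytosolic kinase that makes NADP from NAD, averaged 237 ± 17.5 CPM in the control and 196 ± 16.1 CPM in the cKOt group. At ZT0 the mice had 218, 233, 241, 247 and 257 CPM in the control and 200.0, 206, 209, 214 and 226 CPM in the cKOt group. At ZT4 they had 211, 225, 231, 232 and 244 CPM in the control and 167, 184, 200.1, 203 and 206 CPM in the cKOt group. The ranges overlapped at ZT0, and at ZT4 every cKOt mouse was below every control mouse. At ZT8 the levels were 206, 212, 218, 233 and 239.8 CPM in the control and 168, 184, 185, 188 and 209 CPM in the cKOt group. At ZT12 they were 213, 218, 235, 241 and 244 CPM in the control and 154, 173, 185, 187 and 189 CPM in the cKOt group. The genotypes overlapped at ZT8 by a single cKOt mouse and were apart at ZT12, when the cKOt mean was lowest. At ZT16 levels stood at 236, 256, 259.8, 265 and 275 CPM in the control and 195, 201, 209, 214 and 214 CPM in the cKOt group. At ZT20 they stood at 234, 234, 252, 254 and 259 CPM in the control and 196, 198, 202, 206 and 209 CPM in the cKOt group. At both of these times the groups did not overlap.

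The mean difference of Nadk was -0.27 ± 0.02 (log2, SE), a fold of 0.828 (adjusted p = 9.12e-20, edgeR), which was the smallest standard error and the smallest p among the 8 genes. Nadk was called lower at all 6 time points, from -0.19 ± 0.04 at ZT0 (adjusted p = 0.00105, edgeR) to -0.35 ± 0.04 at ZT12. From ZT0 to ZT20, 5.49%, 6.34%, 9.29%, 10.8%, 9.75% and 7.79% of retained genes were called lower, and 2.41% at all 6 time points. Groups without overlap and with cKOt below made up 5.47%, 4.67%, 4.64% and 3.83% of genes at ZT4, ZT12, ZT16 and ZT20. The interaction test gave no evidence that the difference varied with time (adjusted p = 0.328, edgeR). In the 6 library batches the difference lay between -0.33 and -0.21, and no alternative changed a call of Nadk in its mean or at a time point.

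Nmnat1 (ENSMUSG00000028992, chromosome 4, 149467572 to 149485202, minus strand), the nuclear enzyme of the last step from mononucleotide to dinucleotide, averaged 19.0 ± 1.28 CPM in the control and 17.1 ± 1.69 CPM in the cKOt group. Its mean difference was -0.15 ± 0.03 (log2, SE), with an adjusted p of 1.92e-05 in edgeR. At ZT0 the mice had 20.3, 20.3, 20.5, 20.5 and 20.6 CPM in the control and 16.3, 16.5, 17, 17.6 and 20.5 CPM in the cKOt group. At ZT8 they had 16.5, 18.7, 18.8, 19.4 and 19.5 CPM in the control and 14.1, 14.3, 15.6, 16.7 and 16.9 CPM in the cKOt group. The control mice at ZT0 were close together and 4 of 5 cKOt mice were below all of them, while at ZT8 a single control mouse fell within the cKOt range. These were the 2 time points at which Nmnat1 passed, with -0.22 ± 0.07 (adjusted p = 0.0249, edgeR) and -0.28 ± 0.07 (adjusted p = 0.00238, edgeR), beside 5.49% and 9.29% of genes called lower at these times. The call at ZT0 was lost under 7 of 14 alternatives, with an adjusted p of up to 0.164 (edgeR, without replicate 2). Elsewhere the difference lay between -0.06 at ZT4 and -0.14 at ZT16, and the interaction test did not pass (adjusted p = 0.594, edgeR). At ZT4, ZT12, ZT16 and ZT20 the group means were 18.2 ± 1.28, 18.5 ± 1.09, 19.6 ± 0.961 and 18.6 ± 1.45 CPM in control mice, against 16.9 ± 1.81, 17 ± 1.19, 17.8 ± 1.5 and 17.8 ± 2.08 CPM in cKOt mice. All of these groups overlapped. Within batches the difference was below 0 in 6 of 6, from -0.30 to -0.05.

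Nadsyn1 (ENSMUSG00000031090, chromosome 7, 143795584 to 143822849, minus strand), the glutamine-dependent NAD synthetase, averaged 32.4 ± 4.08 CPM in the control and 29.3 ± 3.51 CPM in the cKOt group, a mean difference of -0.14 ± 0.03 (log2, SE; adjusted p = 8.29e-05, edgeR). No single time point passed. At ZT4, the only time without overlap, there were 31, 31.1, 32.8, 32.9 and 35.4 CPM in the control and 23.2, 26.2, 28.9, 29.1 and 29.6 CPM in the cKOt group. Groups without overlap at ZT4 and with cKOt below made up 5.47% of all genes. At ZT12 there were 32.6, 34.5, 38, 38.8 and 40.4 CPM in the control and 29.2, 29.2, 31.4, 33.6 and 35.2 CPM in the cKOt group. The groups did overlap at ZT12, where the estimate was farthest from 0 with -0.17 ± 0.07, and the estimate was nearest to 0 at ZT0, with -0.04 ± 0.07. At ZT4 the estimate was -0.15 ± 0.07. Estimates are adjusted for 2 covariates of unwanted variation (RUVs factors) and CPM values are not, so the order of time points can differ between them. At ZT0, ZT8, ZT16 and ZT20 control mice averaged 32.3 ± 3, 32.5 ± 4.06, 32.4 ± 4.34 and 28 ± 3.66 CPM, and cKOt mice 31.6 ± 2.75, 30.2 ± 3.57, 29.4 ± 1.98 and 25.4 ± 3.38 CPM. The call for the mean held under all 14 alternatives. Within batches the difference was below 0 in 5 of 6, and in batch 3 it was 0.01.

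**Figure D3:**
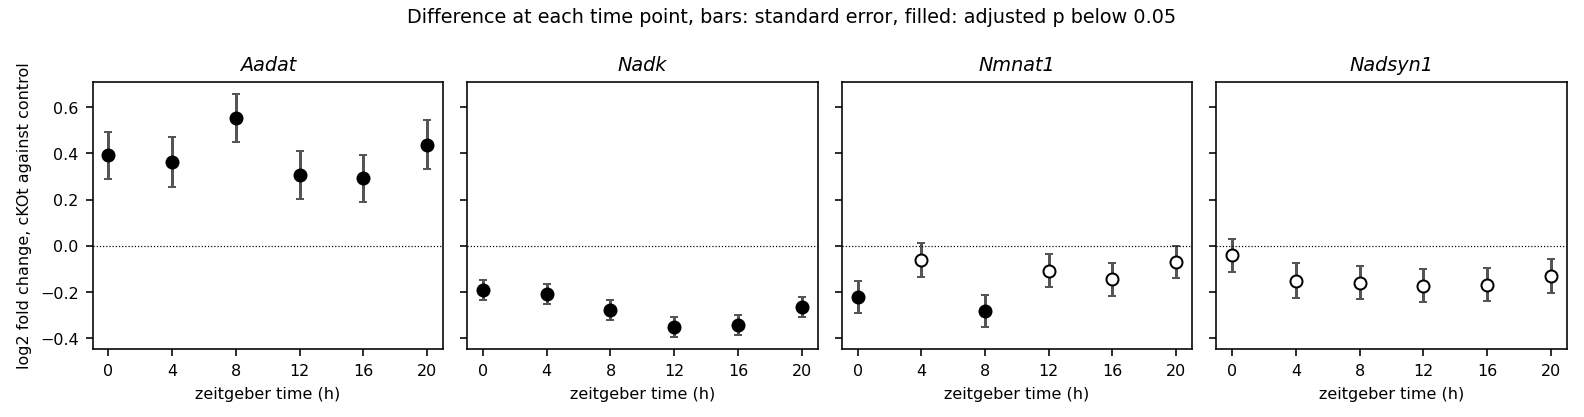
Log2 fold change of cKOt against control mice (y axis) at each zeitgeber time in hours (x axis) for the 4 genes whose mean difference passed, with bars for the standard error and 5 mice per group. Filled points have an adjusted p below 0.05, which holds at 6 of 6 times for Aadat and Nadk, at ZT0 and ZT8 for Nmnat1 and at none for Nadsyn1.

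The other 4 genes had no mean difference past the threshold, and their intervals show what size could have been missed. For Nadk2 (ENSMUSG00000022253, chromosome 15, 9071260 to 9110891, plus strand), the mitochondrial NAD kinase, the means were 129 ± 11.9 CPM in the control and 129 ± 13.8 CPM in the cKOt group, and the 95% interval of the log2 difference ran from -0.05 to 0.02 (adjusted p = 0.625, edgeR). That interval was narrow, while that of Acmsd (ENSMUSG00000026348, chromosome 1, 127729413 to 127767978, plus strand), with 153 ± 50.7 and 164 ± 51.1 CPM, ran from -0.03 to 0.21 (adjusted p = 0.223, edgeR). Without replicate 4 of each group Acmsd passed, with a difference of 0.16 and an adjusted p of 0.04 in edgeR. Kynu (ENSMUSG00000026866, chromosome 2, 43555329 to 43682715, plus strand) had 4.91 ± 1.71 and 5.45 ± 2.41 CPM, with an interval from -0.13 to 0.39 (adjusted p = 0.411, edgeR). The mean difference of Kynu was 0.13 with all mice and -0.0032 without replicate 3, which holds a cKOt mouse at ZT12 with 13.9 CPM. Nnmt (ENSMUSG00000032271, chromosome 9, 48591877 to 48605153, minus strand) had 0.638 ± 0.303 and 0.539 ± 0.190 CPM, and its interval was the widest, from -0.51 to 0.05 (adjusted p = 0.163, edgeR). Over single mice Kynu ran from 2.09 to 8.50 CPM in the control and from 2.71 to 13.9 CPM in the cKOt group, and Nnmt from 0 to 1.5 CPM and from 0.206 to 0.839 CPM, with 1 of 60 libraries at 0. Within the 6 library batches the difference was above 0 in 4 for Acmsd, 4 for Kynu, 3 for Nadk2 and 2 for Nnmt. None of these 4 genes passed at any time point, and the ranges of the genotypes overlapped at all 6 time points for each of them.

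The NAD kinases can be set side by side within each mouse, since both were measured in the same library. The ratio of Nadk to Nadk2 mRNA per kilobase had a mean of 2.54 ± 0.349 in the control and 2.11 ± 0.359 in the cKOt group (SD, n = 30 each). By group, the mean ratio in control mice ran from 2.16 at ZT12 to 2.86 at ZT16, and that in cKOt mice from 1.70 at ZT12 to 2.44 at ZT16. Single control mice ranged from 1.93 to 3.34 and single cKOt mice from 1.34 to 2.63, so that the genotypes overlapped over the day as a whole. The groups did not overlap at ZT4, with 2.33 to 2.71 against 1.49 to 2.14, nor at ZT12, with 1.93 to 2.38 against 1.34 to 1.89. The ratio was computed as a description and was not tested, and no share over other pairs of genes was computed.

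**Figure D4:**
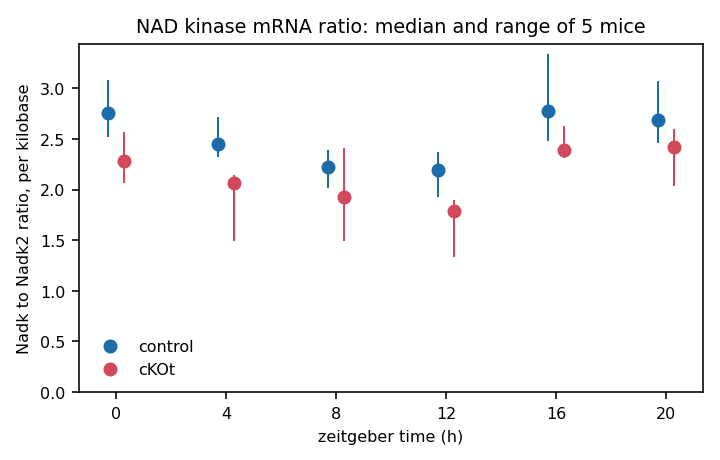
Ratio of Nadk to Nadk2 mRNA per kilobase of exon in single mice (y axis, from 0) against zeitgeber time in hours (x axis), with points for the median and lines for the range of 5 mice (blue, control and red, cKOt). The ratio is lowest at ZT12 in both genotypes, and the ranges are separate at ZT4 and ZT12.

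The second comparison asked which of the genes cycled over the day, by fitting a 24 h wave in each genotype. Acmsd had the largest fitted amplitude of the 8 genes in both genotypes, with its low at ZT12. At ZT0 the mice had 164, 209, 214, 217 and 238 CPM in the control and 161, 170.1, 177, 238 and 248 CPM in the cKOt group. At ZT12 they had 78.2, 82.9, 83, 109 and 110.4 CPM in the control and 75.3, 79, 79.2, 103 and 116 CPM in the cKOt group. In each genotype the 2 groups were wholly separate, with every mouse at ZT12 below every mouse at ZT0. These times were picked with the levels known, and the share of all genes with such a separation was not computed. At ZT4, ZT8 and ZT16 control mice averaged 160.5 ± 37.5, 137 ± 18.3 and 119 ± 25.8 CPM, and cKOt mice 201 ± 25.6, 137 ± 10.9 and 138 ± 19.8 CPM (SD, n = 5). At ZT20 the values had returned to 157 to 271 CPM in the control and 196 to 236 CPM in the cKOt group. The fitted peak-to-trough amplitude was 1.11 ± 0.14 (log2, SE) with a peak at ZT23.9 in control mice and 1.16 ± 0.14 with a peak at ZT23.7 in cKOt mice (adjusted p = 2.23e-08 and 4.19e-08, edgeR). The test of a difference between these rhythms did not pass (adjusted p = 0.987, edgeR). Model selection in the manner of dryR, which weighs 5 models of rhythm by the Bayesian information criterion, placed Acmsd in the model with 1 shared rhythm at a weight of 0.982, as it did 25.2% of all retained genes. The mRNA of the enzyme that turns the pathway away from quinolinic acid varied by 2.25 times between the highest and lowest group means in control mice and by 2.42 times in cKOt mice.

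Rhythms were called (adjusted p below 0.05, edgeR) for 4 of the 8 genes in control mice, Acmsd, Nadk, Nadk2 and Nadsyn1, and for 4 in cKOt mice, Acmsd, Nadk, Nadk2 and Kynu, beside 33.1% and 28.2% of all retained genes. Nadk2 rose towards the end of the light phase in both genotypes. At ZT0 it had 107, 116, 117, 118 and 127 CPM in the control and 119.8, 123, 125, 125 and 132 CPM in the cKOt group. At ZT4 it had 120.2, 123, 125, 129.7 and 132 CPM in the control and 128, 133, 136, 149.9 and 153 CPM in the cKOt group. At ZT12 it had 135, 140.4, 149, 152 and 155 CPM in the control and 133, 136, 142, 148 and 158 CPM in the cKOt group. In each genotype every mouse at ZT12 was above every mouse at ZT0, times that were picked with the levels known. The share of all genes separated in this way was not computed. At ZT16 levels were back at 112, 120.0, 128, 129 and 130.0 CPM in the control and 111, 114, 115, 115 and 123 CPM in the cKOt group. At ZT8 and ZT20 the ranges were 130.1 to 142 and 115 to 141 CPM in the control and 118 to 154 and 108 to 131 CPM in the cKOt group. The amplitude was 0.26 ± 0.03 in each genotype, with peaks at ZT10.3 in control and ZT7.63 in cKOt mice (adjusted p = 6.54e-07 and 1.31e-06, edgeR). The model with different rhythms in both genotypes had a weight of 0.907, whereas the edgeR test of the difference between the rhythms did not pass (adjusted p = 0.111, against 4.35% of genes that passed). Nadk2 was left unassigned under 2 of 9 alternatives, without the RUVs correction and without replicate 5.

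Nadk cycled with a small amplitude, 0.19 ± 0.03 (log2, SE) with a peak at ZT18.3 in control mice and 0.20 ± 0.03 with a peak at ZT21.7 in cKOt mice (adjusted p = 5.37e-05 and 2.00e-05, edgeR). By group means, control levels were highest at ZT16 and cKOt levels at ZT0. The model with 2 different rhythms had a weight of 0.968, beside 2.37% of genes assigned to this model. The test of the difference did not pass in edgeR (adjusted p = 0.0528). Over the 14 alternatives its adjusted p ran from 0.0271 (DESeq2) to 0.582 (edgeR without RUVs factors), and it passed in limma (0.0475) and DESeq2 only. Without replicate 1 it was 0.429 in edgeR. The model was also lost under 2 of 9 alternatives, since Nadk was assigned to the shared rhythm without the RUVs correction and to no model without replicate 1. The fitted peaks of Nadk fell in the dark phase and those of Nadk2 in the light phase, in either genotype. The highest group mean of Nadk2 was at ZT12, when lights go off, in both genotypes.

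Nadsyn1 passed in control mice, with an amplitude of 0.25 ± 0.07 that peaked at ZT10.0 (adjusted p = 0.0156, edgeR), and not in cKOt mice, with 0.17 ± 0.07 and a peak at ZT8.97 (adjusted p = 0.201, edgeR). The difference between these rhythms did not pass (adjusted p = 0.852, edgeR), and model selection placed the gene in the shared rhythm at a weight of 0.875, an assignment lost under 2 of 9 alternatives (without the RUVs correction and without replicate 5). The control call was lost under 4 of 14 alternatives, with an adjusted p of 0.0578 without replicate 1, 0.064 without replicate 3, 0.115 without RUVs factors and 0.0828 with batch in their place (edgeR). Kynu passed in cKOt mice alone, with 0.74 ± 0.26 and a peak at ZT13.2 (adjusted p = 0.032, edgeR), against 0.36 ± 0.26 in control mice (adjusted p = 0.611, edgeR). The difference did not pass (adjusted p = 0.472, edgeR), no model reached the weight of 0.65, and the call was lost under 7 of 14 alternatives, including that without replicate 3 (adjusted p = 0.2, edgeR). At ZT12 Kynu had 3.49, 3.6, 7.65, 7.87 and 8.5 CPM in the control and 4.48, 5.16, 5.4, 6.3 and 13.9 CPM in the cKOt group. The scatter between mice was wide in both groups. Aadat (adjusted p = 0.12 in control and 0.296 in cKOt mice, edgeR), Nmnat1 (0.469 and 0.085) and Nnmt (0.44 and 0.339) did not pass in either genotype. Of these, Nnmt was assigned to the model without rhythm at a weight of 0.807 (34% of genes), and Aadat and Nmnat1 to none, as were 28.7% of genes. These assignments varied as well when a replicate was left out, for Nnmt in 1 of 9 alternatives (unassigned without replicate 2), for Aadat in 3 and for Kynu in 1.

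**Figure D5:**
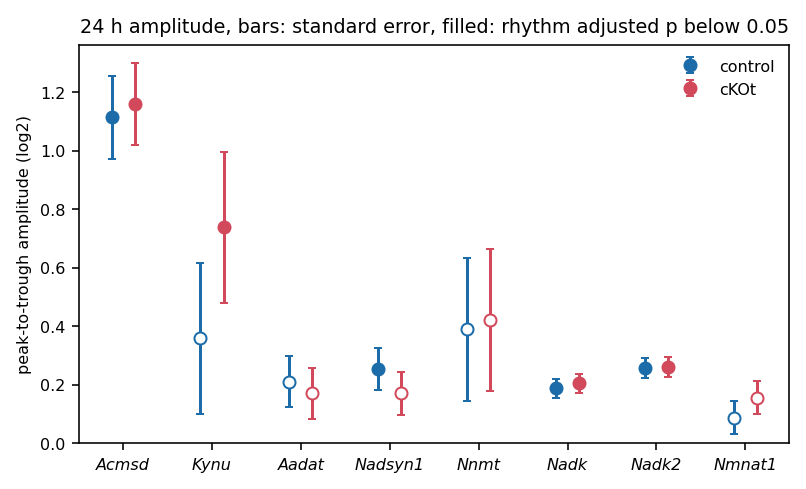
Fitted peak-to-trough amplitude (y axis, log2) of the 24 h wave in control (blue) and cKOt (red) mice for the 8 genes (x axis), with bars for the standard error (30 mice per genotype). Filled points have a rhythm with an adjusted p below 0.05, and Acmsd stands highest at 1.11 and 1.16.

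Of 11 other genes of the kynurenine route, 9 were retained. Tdo2 and Ido1 were not, with at most 0.259 and 0.525 CPM and with 45 and 8 of 60 libraries at 0. Of the 9 retained genes, 5 were higher, 2 were lower and 2 did not pass in the mean difference, beside 26.8% higher and 23.2% lower over all genes. The median log2 difference of the 9 genes was 0.08. Kmo, the monooxygenase that hydroxylates kynurenine, was higher with 176 ± 18.8 CPM in the control and 237 ± 25.4 CPM in the cKOt group (0.41 ± 0.02, adjusted p = 2.60e-22, edgeR). The aminotransferases that share the reaction of Aadat were unlike each other, since Kyat3 was higher by 0.30 ± 0.03 and Kyat1 lower, with -0.49 ± 0.03 (adjusted p = 2.55e-11 and 3.82e-18, edgeR). Afmid, the formamidase that releases kynurenine, fell by 0.37 on the log2 scale, from 27.3 ± 4.26 to 21.1 ± 4.20 CPM (adjusted p = 1.62e-09, edgeR). These 4 were the genes of the route with a difference of at least 0.3, a size that 13.5% of all retained genes reached with a call. 

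Of 13 other genes of NAD metabolism, 10 were retained, with a median log2 difference of 0.08. Of the 10, 5 were higher, 4 lower and 1 did not pass, beside 26.8% higher and 23.2% lower over all genes. Nampt, the rate-limiting enzyme of the salvage of nicotinamide, was lower, with 245 ± 41.6 CPM in the control and 159 ± 18.8 CPM in the cKOt group (-0.63 ± 0.02, adjusted p = 1.76e-30, edgeR). Nt5e, the ectonucleotidase CD73, was higher, with 243 ± 100.4 against 366 ± 55.2 CPM (0.68 ± 0.05, adjusted p = 1.30e-16, edgeR). A difference that varied over the day was found for 4 of these 10, beside 3.08% of all retained genes, and Nampt and Nt5e were among them (interaction, adjusted p = 8.29e-05 and 4.57e-06, edgeR). For the 8 genes the interaction gave adjusted p values from 0.203 (Nadk2) to 0.926 (Nadsyn1) in edgeR.

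Around Nnmt, the 8 retained of 9 genes of the methyl cycle and of nicotinamide oxidation were all called, 3 higher and 5 lower. Over all retained genes 50% were called, 26.8% higher and 23.2% lower. Bhmt, which remethylates homocysteine with betaine, rose from 1.62 ± 0.65 to 14.0 ± 4.47 CPM (3.14 ± 0.11, adjusted p = 1.76e-30, edgeR), and Ahcy, which clears the S-adenosylhomocysteine left by methyltransferases, fell by 0.49 (adjusted p = 6.26e-25, edgeR). Downstream of the NAD kinases, 11 genes listed as sources of NADPH were all retained. Whether each of their enzymes uses NADP rather than NAD was not checked. In this list, 3 were higher, 5 lower and 3 not past the threshold, beside the same shares over all genes. Of these, Aldh1l2 (3.71 ± 0.711 against 4.66 ± 0.809 CPM) was higher by 0.32 ± 0.07 and Me1 (791 ± 48.0 against 647 ± 34.4 CPM) lower, with -0.30 ± 0.02 (adjusted p = 6.20e-05 and 1.47e-21, edgeR).

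Markers of cell types moved with genotype as well, as did 50% of all retained genes (26.8% higher and 23.2% lower), and the part of the markers in the results was not tested. Of 10 proximal tubule markers, 3 were higher, 5 lower and 2 did not pass, with a summed level of 14626 to 19322 CPM (median 16539) in control and 13346 to 18834 CPM (median 14653) in cKOt mice. None of 7 fibroblast markers was higher and 5 were lower, with sums of 71.3 to 271 CPM (median 207) against 92.3 to 233 CPM (median 172), and of 6 macrophage markers 5 were lower and 1 did not pass, with sums of 63.6 to 115 (median 93.5) against 69.3 to 112 CPM (median 87.4). The 6 adipocyte markers did not pass, and their sums reached 22.9 CPM in the control and 26.5 CPM in the cKOt group with medians of 4.10 and 3.2 CPM. No marker of the fibroblast, macrophage and adipocyte lists was at 0 in every library, although Lep was at 0 in 21 of 60.

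Of 5 thick ascending limb markers 4 were higher and 1 was lower in cKOt mice, with sums of 3133 to 5934 CPM (median 4893) in control and 3854 to 5137 CPM (median 4199) in cKOt mice. Of 4 distal convoluted tubule markers 3 were higher and 1 did not pass, with sums of 1263 to 1764 CPM (median 1484) against 1343 to 1993 CPM (median 1627). Of 6 collecting duct markers 4 were higher, 1 was lower and 1 did not pass, with sums of 231 to 337 CPM (median 254) against 213 to 318 CPM (median 267). None of 4 podocyte markers passed (sums of 279.6 to 410.2 CPM, median 344, against 289 to 384 CPM, median 334). Of 5 endothelial markers 4 were lower and 1 did not pass (356 to 428 CPM, median 386, against 316 to 407 CPM, median 361). Only 2 of 6 lymphocyte markers, Cd3e and Cd3g, were retained, and both were lower (0.452 to 2.70 CPM, median 1.08, against 0.474 to 1.59 CPM, median 0.779). Of 6 hepatocyte markers 2 were higher, 2 lower and 2 did not pass (119.5 to 243 CPM, median 178, against 92.8 to 239 CPM, median 173). Most of this sum was Ttr, with 147 ± 30.3 against 152 ± 35.4 CPM. The higher markers were Fgb (5.30-fold) and Apoa2 (1.29-fold), and the lower ones were Alb (0.132-fold) and Serpina1a (0.312-fold). Of 5 tubular injury genes 1 was higher, 2 were lower and 2 did not pass (476 to 838 CPM, median 608, against 462 to 997 CPM, median 527). Star was the one retained adrenal marker of 5 and did not pass. The sums are over retained markers, and the part of these lists in the results was not tested either.

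In a list of genes with a mean of at least 5 CPM, those most like each member over the 12 group means of log CPM included Kmo for Aadat (Pearson r = 0.971, after Ppic at 0.973 and Gm9973 at 0.973), and Mettl7b, Cdc42se1 and Mast2 for Nadk (0.983, 0.980 and 0.980). Near to Nadk2 were Pex3, Ctbs and Kiz (0.963, 0.961 and 0.961), to Acmsd Tdrd5 and Ifi44 (0.909 and 0.901), and to Nadsyn1 Mknk1, Rnf114 and Dis3l2 (0.879, 0.878 and 0.873). Nearest to Nmnat1 were Ptprc, the leukocyte antigen CD45, with C3 and Nmt1 (0.964, 0.922 and 0.915), to Nnmt Smoc2, Cdh13 and Matn2 (0.941, 0.897 and 0.883), and to Kynu Psme2, Plekha3 and Rpl30 (0.798, 0.780 and 0.764). The 12 points share libraries and the split by genotype, and these values are given as a description.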

How the data were processed

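The counts were made by the authors and deposited as whole numbers of reads per Ensembl gene and sample, without normalization or pooling. Per the submitters' processing notes, bcl2fastq, cutadapt (1.8), STAR (2.5.3a) and htseq-count of HTSeq (0.9.1) were used on GRCm38, and the libraries were stranded poly(A) libraries read from 1 end. The authors had chosen 5 of 6 mice per group by RNA integrity and by distance in ordination plots, so the spread within groups may be understated. Lines of the counting program that name no gene were left out. They held 7.17% to 10.6% (no feature) and 0.953% to 1.27% (ambiguous) of the reads that were counted to genes or to these lines. Symbols and positions came from GENCODE mouse release M21 on GRCm38, promoter windows from RefSeq (GRCm38.p6).

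A gene was retained if any sample reached 1 CPM, and libraries were scaled by TMM (factors 0.908 to 1.07). Tests used edgeR (4.0.16) in R (4.3.3), with quasi-likelihood F tests on 12 groups (genotype by time), the 2 RUVs factors entering as covariates, and Benjamini-Hochberg adjustment over all 15546 retained genes (threshold 0.05). Contrasts were the mean over 6 time points, each time point, and their equality (interaction). A second fit held cosine and sine terms with a period of 24 h per genotype. RUVs (on log CPM with a prior count of 2) and the selection among 5 models of dryR (assigned at a weight of 0.65 or more) were written anew. The tests and the model selection were run on simulated counts. These held no unwanted factor, so the removal of such factors by RUVs was not checked. Group values are TMM-normalized CPM ± SD, differences are log2 ± SE, and RPKM divides CPM by the exonic length in units of 1000 bases. limma (3.58.1) and DESeq2 (1.42.0) served as alternatives.

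The 8 genes, the pathway lists and the marker lists were chosen with earlier results of these data known. Beside the 8 genes, the text names genes of the kynurenine and NAD lists that passed with an absolute log2 difference of at least 0.3, the 2 largest of the methyl and NADPH lists, Arntl, and the 3 genes most like each member (of 10864 with a mean of at least 5 CPM). Of these, 1 gene and 1 promoter stretch are not reported here. Nnt has 2 gene IDs and was not used here. No 2 replicates (120 pairs) held identical values, and their squared differences were at least 5.59 times the sampling noise. Deviations of samples with the same replicate number in different groups had a mean correlation of 0.0043 (330 pairs), against -0.0010 for different numbers (1320 pairs). No pairing by number was seen, although such a mean cannot exclude one. For samples of the same library batch in different groups it was 0.0361 (270 pairs), against -0.0070 for different batches (1380 pairs). The study's sample table marks replicate 4 of cKOt ZT16 for removal, and it was kept in the main fit and left out as an alternative.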

Additional observations from a re-analysis of the deposited data

Results flagged for a closer look

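Among the 96 groups of 5 mice examined for the 8 genes, 3 held a mouse far from the other 4 by Dixon's test, and chance alone marks about 1 group in 20. For Acmsd, 1 control mouse at ZT4 (replicate 4) had 226 CPM, beside 130.2 to 150.9 CPM in the others. For Kynu, 1 cKOt mouse at ZT12 (replicate 3) had 13.9 CPM, beside 4.48 to 6.30 CPM. For Nmnat1, 1 control mouse at ZT8 (replicate 3) had 16.5 CPM, beside 18.7 to 19.5 CPM. Without replicate 4 of each group the mean difference of Acmsd passed the threshold, and without replicate 3 that of Kynu changed sign, while the call of Nmnat1 at ZT8 held without replicate 3.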

How the results depend on the processing

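The mean differences of Aadat (0.34 to 0.43), Nadk (-0.28 to -0.25), Nmnat1 (-0.17 to -0.12) and Nadsyn1 (-0.17 to -0.12) kept their direction and call under all 14 alternatives. Differences near 0 changed sign for Kynu without replicate 3 (-0.0032, up to 0.22 without another replicate), for Nadk2 without RUVs factors (0.000745) and with library batch in their place (0.0071), and for Nadsyn1 within batch 3 (0.012). Within single batches, genes without a call also changed sign, and farther from 0, as for Kynu (-0.80) and Acmsd (-0.35) in batch 6 and Nnmt (0.37) in batch 2. Scaling by DESeq2 size factors moved the median log2 difference of all genes from 0.01 to 0.0022, and the genes called from 4174 higher and 3604 lower to 3726 and 3881, with no change in direction among the 8 genes.

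Over all genes, leaving out the RUVs factors gave 263 calls for the interaction in place of 479, 983 at ZT0, 2013 at ZT8, 1853 at ZT16, 1407 at ZT20, 3311 and 2430 rhythms in control and cKOt mice, and 342 rhythm differences in place of 677. With batch in their place these were 312, 1130, 1991, 1829, 1419, 3278, 2446 and 371, and ZT4 gave 3091 in place of 1950. Leaving out 1 replicate number gave 233 to 429 interactions and 387 to 578 rhythm differences. Of the dryR models, those with rhythm in cKOt mice alone and with different rhythms held 337 and 153 genes without RUVs. At a weight of 0.5, 1679 genes stayed unassigned and 860 had a rhythm in cKOt mice alone. At 0.8 there were 7794 unassigned, 637 with a rhythm in control mice alone, 299 in cKOt mice alone and 237 with different rhythms. The cause was not tested, apart from the smaller number of mice and the moved threshold themselves. With the replicate number as a block, 7734 genes had a mean difference in place of 7778, and none of the 54 results of the 8 genes changed its call. Depth limits Nnmt (0 to 29 reads), while Kynu (36 to 279 reads) also varied widely between mice.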
